A study of Sus scrofa with 35 samples.

Results

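Cytotoxic lymphocyte genes were examined in the whole blood of 35 castrated male growing pigs kept in thermoneutral (TN) conditions or exposed to heat stress (HS). The list held 10 genes, namely *GZMA*, *GZMB*, *PRF1*, *NKG7*, *KLRB1*, *KLRK1*, *NCR1*, *FCGR3A*, *CD8A* and *TBX21*. A gene was taken as measured when at least 1 probe of the array carried its symbol, which held for 8 of the 10. These 8 genes had 15 probes, and 14 of these were in the table of log2 values deposited by the authors, against 39072 probes and 28066 gene names (sequence records included) in the whole table. *KLRB1* and *FCGR3A* had no probe of that symbol and are described apart.

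The pigs were Creole (CR), Large White (LW) or F1 pigs of both breeds, and they entered the climatic room at 11 weeks of age. The 6 groups were CR TN (n = 5), CR HS, F1 TN, F1 HS, LW TN and LW HS (n = 6 each), with 1 array per pig. TN pigs were kept at 24 °C. HS pigs are labelled 30 °C in the sample titles, the protocol text gives 32 °C, and the exposure lasted 5 d (4 d for some pigs in the methods of the study, which the labels do not tell apart). All groups shared the same room and housing, with 4 pens of 3 pigs per breed. Each pen went to 1 climate, and TN pigs were slaughtered before the temperature rose, so that climate cannot be told apart from pen, day of slaughter and the few days of added age. The methods of the study arranged the pigs in blocks of littermates and drew pen mates from different blocks. By this design litters spanned TN and HS, which the labels do not trace.

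Cytotoxic lymphocytes are natural killer (NK) cells and cytotoxic T cells. They kill infected or transformed cells by releasing granules in which perforin, encoded by *PRF1*, opens the membrane of the target and granzymes such as those of *GZMA* and *GZMB* enter it and cleave proteins. Release is triggered through activating receptors on the surface, and the transcription factor T-bet, encoded by *TBX21*, helps to set the programme up. In pigs, CD8 alpha chains are carried by NK cells and gamma delta T cells as well as by classical cytotoxic T cells. Whole blood is a mixture of cells, so fewer cells of a type and less RNA per cell cannot be told apart.

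The probes are single strands of 60 bases, and those of *KLRK1* and *TBX21* are shown because the differences between HS and TN pigs turned on them. Capitals mark the 14 bases that both *KLRK1* probes hold and the stop codon that ends an otherwise open reading frame in the lead *TBX21* probe. The lead probe of a gene is the one with the highest mean log2 value over the 35 arrays.

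KLRK1 lead probe (A_72_P621363): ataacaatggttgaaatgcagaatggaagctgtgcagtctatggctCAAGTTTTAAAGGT
KLRK1 second probe (A_72_P223867): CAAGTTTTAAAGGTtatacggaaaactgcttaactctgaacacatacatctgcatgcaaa
TBX21 lead probe (A_72_P444679): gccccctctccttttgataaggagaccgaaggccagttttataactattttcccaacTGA
TBX21 second probe (A_72_P175831): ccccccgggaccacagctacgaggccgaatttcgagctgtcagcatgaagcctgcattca

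The *KLRK1* probes overlap end to end by those 14 bases, whereas the pair of *TBX21* probes shares no run of more than 5 bases. The *CD8A* lead probe and another *CD8A* probe hold the same 60 bases and count as 1 measurement of the RNA. Of the 3 *GZMB* probes, the lead probe and a second one share 29 bases.

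The scanner software called between 55.2% and 68.0% of an array's probes well above background. As a measure of overall array signal, the 75th percentile of processed intensities was taken, and it ranged from 112 to 329. It was 150 ± 28.3 in F1 TN pigs and 238 ± 35.6 in F1 HS pigs (SD, n = 6 each), and the means of the CR and LW groups lay between 202 and 228. Arrays of the same group had correlations of 0.945 to 0.992 across all probes. Of the 14 member probes, 11 were well above background on all 35 arrays. The exceptions were the second *KLRK1* probe and the *PRF1* probe (34 arrays each) and the *GZMA* lead probe (13 arrays). No spot of a member was saturated or marked as an outlier.

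**Figure D1:**
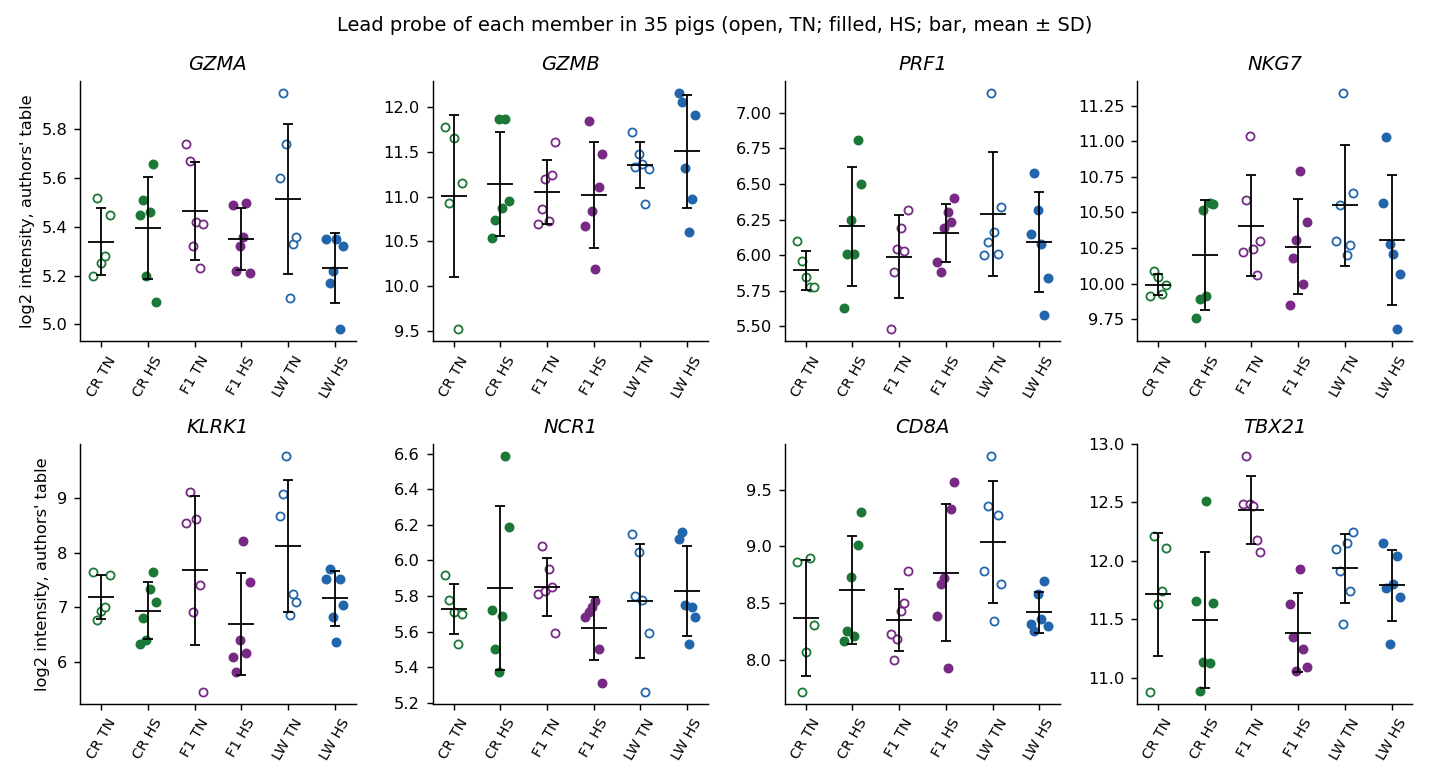
Log2 intensity (authors' table, vertical axis) of the lead probe of each of the 8 measured genes in the 6 groups; each point is a pig, open for TN and filled for HS, and the bars are mean ± SD. The F1 HS pigs lie below all F1 TN pigs for *TBX21* (highest F1 HS value 11.93, lowest F1 TN value 12.08), and *KLRK1* spreads from 5.45 to 9.78.

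Over all breeds, 3 of the 14 member probes were lower in HS than in TN pigs and 0 were higher (limma, adjusted p at most 0.05, additive model of breed and climate). The 3 were both probes of *KLRK1* and the lead probe of *TBX21*. Among all probes tested, 14.7% were lower and 20.1% were higher in HS pigs, so the members' share of lower calls was not far from the background. The median difference of the 14 probes was -0.05 on the log2 scale, against 0.06 over all probes. The granule genes, *NCR1*, *NKG7* and *CD8A* did not pass.

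*KLRK1* encodes NKG2D, an activating receptor of NK cells and cytotoxic T cells that binds ligands displayed by stressed cells. Its lead probe read 6.76, 6.94, 7.0, 7.59 and 7.65 in the 5 CR TN pigs. In the CR HS pigs the lowest value was 6.32, the median 6.96 and the highest 7.65. F1 TN pigs ranged from 5.45 to 9.12 with a median of 7.98, and F1 HS pigs from 5.81 to 8.22 with a median of 6.29. LW TN pigs ranged from 6.86 to 9.78 with a median of 7.96, and LW HS pigs from 6.36 to 7.70 with a median of 7.28. The HS and TN pigs overlapped in each breed, and the highest values belonged to some of the F1 TN and LW TN pigs. Of the 18 HS pigs, 15 lay below the TN mean of their breed.

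The *KLRK1* lead probe was lower in HS pigs by a log2 difference of -0.75 ± 0.29 (SE), which is 1.68-fold, with an adjusted p of 0.0437. The second probe gave -0.73 ± 0.26, with an adjusted p of 0.0310. The group means of the lead probe, from high to low, were 8.12 (LW TN), 7.68 (F1 TN), 7.19 (CR TN), 7.16 (LW HS), 6.94 (CR HS) and 6.69 (F1 HS), so all TN groups stood above all HS groups. No neighbours in that order differed by more than their pooled SD. Within breeds the difference of the lead probe was -0.25 in CR, -0.98 in F1 and -0.96 in LW pigs, and none of these passed (adjusted p = 0.905, 0.115 and 0.580). The interaction of breed and climate did not pass either (adjusted p = 0.767).

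The call of *KLRK1* lay near the threshold. Leaving out any 1 of 17 pigs ended it for the lead probe (2 CR TN, 2 CR HS, 3 F1 TN, 4 F1 HS, 3 LW TN and 3 LW HS pigs), with a difference between -0.75 and -0.63 and an adjusted p of 0.0509 to 0.0771. For the second probe 5 pigs did so (3 F1 TN, 1 F1 HS and 1 LW TN pig), with an adjusted p of 0.0506 to 0.0552. The arrays lay on 5 slides, and HS pigs were lower than TN pigs on 3 of them (down to -1.48) and slightly higher on the other two (0.10 and 0.23), with no correction for breed. Slide 5 held only 3 groups, CR HS, F1 HS and LW TN, so HS and TN pigs shared no breed there.

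A further probe without a gene symbol shares 48 bases with the second *KLRK1* probe. It was outside the rule that chose the members. It followed the second probe over the 35 pigs with a correlation of 0.990, and its difference between HS and TN pigs was -0.75 ± 0.26 (adjusted p = 0.0236). These probes overlap on the same RNA of the same pigs and add no animals. Pearson's r between both *KLRK1* probes of the member list was 0.979 after the group means were subtracted.

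*TBX21* encodes T-bet, a transcription factor of NK cells, cytotoxic T cells and type 1 helper T cells. Its lead probe read 10.88, 11.63, 11.74, 12.11 and 12.21 in the CR TN pigs. CR HS pigs ranged from 10.89 to 12.51 with a median of 11.39. F1 TN pigs ranged from 12.08 to 12.90 with a median of 12.48, and F1 HS pigs from 11.06 to 11.93 with a median of 11.30. LW TN pigs ranged from 11.46 to 12.25 with a median of 12, and LW HS pigs from 11.29 to 12.15 with a median of 11.79. Only in F1 pigs did the HS and TN values not overlap, which held in that direction for 8.08% of all probes of the table.

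The *TBX21* lead probe was lower in HS pigs by -0.48 ± 0.14 (adjusted p = 0.0119). It was the member probe with the smallest p-value, and its call held when any 1 pig was left out (adjusted p of 0.00246 to 0.0222). Without all F1 pigs the difference was -0.18 (adjusted p = 0.553), in a fit where 0 of all 39072 probes were called. Of the 18 HS pigs, 15 lay below the TN mean of their breed, against 14 for *NCR1*, which did not pass. HS pigs were lower than TN pigs on all 5 slides (-0.90 to -0.22), with no correction for breed and with no breed shared between climates on slide 5. Within F1 pigs the difference was -1.05 ± 0.22, or 2.07-fold, with an adjusted p of 0.000812. It was -0.22 in CR and -0.15 in LW pigs, with adjusted p-values of 0.785 and 0.843. The breed by climate interaction of this probe had an unadjusted p of 0.0129 and an adjusted p of 0.278, so that a difference between breeds was not established. F1 TN pigs had the highest group mean (12.44), which exceeded that of LW TN pigs (11.94) by more than the pooled SD. The other neighbours, in the order LW TN, LW HS (11.79), CR TN (11.71), CR HS (11.50) and F1 HS (11.38), did not.

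The second *TBX21* probe was lower in HS pigs by -0.68 ± 0.27, with an adjusted p of 0.0501, just outside the threshold. Among CR pigs its mean was 8.06 ± 0.98 in TN (SD, n = 5) and 7.27 ± 0.91 in HS (n = 6). The TN and HS means were 8.15 ± 1.09 and 7.18 ± 0.86 among F1 pigs, and 7.65 ± 0.45 and 7.36 ± 0.78 among LW pigs (SD, n = 6 each). The groups overlapped in all breeds. On slide 1 this probe averaged 8.77 ± 0.82 (SD, n = 8) and on the other slides 7.10 to 7.39. With slide as a block the difference was -0.66 with an adjusted p of 0.00557. Within the 5 slides, with no correction for breed, HS pigs were lower on every one (-1.0 to -0.38). The value of -1.0 came from slide 5, where HS and TN pigs shared no breed. A probe without a symbol that holds the same 60 bases gave -0.65 ± 0.28 (adjusted p = 0.0633).

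**Figure D2:**
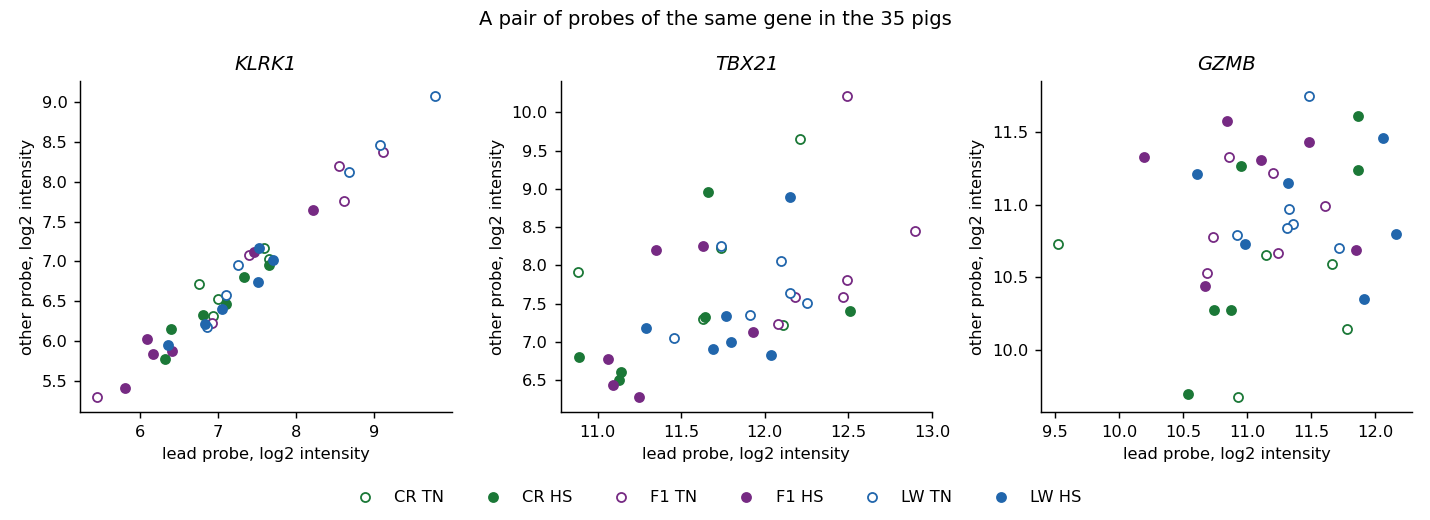
Log2 intensity of the lead probe (horizontal axis) against another probe of the same gene (vertical axis) for *KLRK1*, *TBX21* and *GZMB*; each point is 1 of 35 pigs, coloured by breed, open for TN and filled for HS. The *KLRK1* points fall on a line (r = 0.979 with group means removed), the *TBX21* points scatter more (r = 0.392), and so do those of *GZMB* (r = 0.145). With slide removed as well, r is 0.982, 0.598 and 0.471.

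The pair of *TBX21* probes had r = 0.392 and Spearman's rho = 0.517 over 35 pigs with group means removed, against 0.979 and 0.967 for the pair of *KLRK1* probes. The second *TBX21* probe was higher on slide 1 as given above, whereas the lead probe averaged 11.81 there and 11.64 to 11.89 on the other slides. With slide removed together with group, r was 0.598 and rho 0.520 for *TBX21*, and r was 0.982 for *KLRK1*. The lead *TBX21* probe was also tied to the overall signal of the arrays. Its residuals had r = -0.829 and rho = -0.789 with the log2 of the 75th percentile (permutation p = 1e-05, the smallest that 100000 permutations within groups can give, and 0.0001 after adjustment over 10 probes). Without the 2 pigs farthest from the median of *TBX21*, r was -0.758. Of all 39072 probes, 0.264% had a correlation at or below -0.829. The second *TBX21* probe had r = -0.418 and *KLRK1* r = -0.130. With slide also removed, r was -0.888 for the lead and -0.529 for the second *TBX21* probe and -0.073 for *KLRK1*.

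Array signal moved with climate in F1 pigs, where it was lower in TN pigs, and this bears on the calls above. With the log2 signal of each array as a covariate, the *TBX21* lead probe differed by -0.22 ± 0.08 over all breeds (adjusted p = 0.0543) and by -0.30 ± 0.16 in F1 pigs (adjusted p = 0.394). *KLRK1* then differed by -0.65 ± 0.31 (lead probe, adjusted p = 0.136) and -0.65 ± 0.28 (second probe, adjusted p = 0.101). No member probe passed in that fit. Over the whole table the probes called in F1 pigs dropped from 15108 to 0 and those called over all breeds from 13601 to 6706. Array signal and climate overlap in F1 pigs, and their parts cannot be told apart there.

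Markers of other cell types moved with climate too. The erythroid list had 16 measured genes, 15 of them well above background on every array and none undetected. Its mean lay between 9.57 and 12.11 in F1 TN pigs and between 8.26 and 10.30 in F1 HS pigs. In CR pigs the range was 9.38 to 11.11 in TN and 8.84 to 10.77 in HS, and in LW pigs 9.92 to 11.01 and 9.25 to 10.64. Of these genes 8 fell and 1 rose in HS pigs, among them the carbonic anhydrase *CA1* (-1.41) and the heme synthesis enzyme *ALAS2* (-0.74). With the erythroid mean as a covariate, the *KLRK1* lead probe differed by -0.41 (adjusted p = 0.414) and the *TBX21* lead probe by -0.31 (adjusted p = 0.207), and 0 member probes passed over all breeds. The lead *TBX21* probe in F1 pigs still passed in each of 9 other settings of the processing or the model, the erythroid mean included, with differences of -1.20 to -0.84, and did not pass with array signal as a covariate.

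The T cell list (9 genes measured) had 3 genes that rose, *CD5*, *CCR7* and *CD4*, and 0 that fell. *CD3D*, *CD3E* and *CD3G*, chains of the T cell receptor complex, differed by 0.10, 0.10 and -0.11 and did not pass. Neutrophil and platelet lists had 0 genes that passed, of 11 and 6 measured. Of these, 9 neutrophil and 4 platelet genes were well above background on every array. The neutrophil list holds *FCGR3B*, by a probe that is also described below for *FCGR3A*. The monocyte and B cell lists had 3 genes each that rose, of 8 and 7. Over all gene names 18.6% rose and 17.0% fell.

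The *KLRK1* lead probe and the platelet list ran in opposite directions between pigs. After subtraction of group means, r was -0.718 and rho -0.737 (permutation p = 1e-05, adjusted over 12 relations of *KLRK1* and *TBX21* with 6 cell type lists to 0.00012). Without the 2 pigs farthest from the median of *KLRK1*, r was -0.698. The second *KLRK1* probe gave r = -0.707. With slide removed together with group, r was -0.738 for the lead probe. None of the other 11 relations passed, and *KLRK1* and erythroid means had r = 0.371. The second *TBX21* probe ran against the T cell list (r = -0.557, rho = -0.540, adjusted permutation p = 0.00936), which the lead probe did not to a degree that passed (r = -0.346). With slide also removed these values were r = -0.426 and rho = -0.345 for the second probe and r = -0.390 for the lead probe, given with no p. These relations were chosen after earlier results were known.

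The 2 granzymes and perforin make up the killing machinery of the granule. *GZMB* had 3 probes that were well above background on every array. Among CR pigs its lead probe averaged 11.01 ± 0.90 in TN (SD, n = 5) and 11.14 ± 0.58 in HS (n = 6). The TN and HS means were 11.05 ± 0.36 and 11.02 ± 0.59 among F1 pigs, and 11.35 ± 0.26 and 11.51 ± 0.63 among LW pigs (SD, n = 6 each). All groups overlapped. The difference between HS and TN pigs was 0.08, with a 95% interval of -0.28 to 0.45, and the other probes gave -0.08 and 0.17. The overlapping pair of *GZMB* probes had r = 0.848 between pigs. The lead probe and the third probe, which was designed on the human record, had r = 0.145, and 0.471 with slide also removed.

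*PRF1* had 1 probe, which averaged 5.89 ± 0.14 in CR TN pigs (SD, n = 5) and 6.2 ± 0.42 in CR HS pigs (n = 6). The means of the F1 TN, F1 HS, LW TN and LW HS pigs were 5.99, 6.16, 6.29 and 6.09. Its difference between HS and TN pigs was 0.09, with a 95% interval of -0.14 to 0.31. HS pigs were higher in CR (0.31) and F1 (0.18) and lower in LW pigs (-0.20), with none of these passing. *GZMA* was barely detected. Its lead probe was well above background on 2 of 5 CR TN, 3 of 6 CR HS, 1 of 6 F1 TN, 3 of 6 F1 HS, 4 of 6 LW TN and 0 of 6 LW HS arrays. LW HS pigs therefore have only a bound. The group means were 5.52 (LW TN) and 5.23 (LW HS). With a floor of 5.27 in place of the LW HS mean, the point estimate of the bound was 1.18-fold higher in LW TN pigs. The fitted difference between HS and TN in LW pigs did not pass (adjusted p = 0.563). The 95% interval of HS minus TN in LW pigs, before adjustment, was -0.52 to -0.04. A second *GZMA* probe, outside the authors' table and well above background on 0 LW arrays, had means of 5.11 (LW TN) and 5.12 (LW HS). Over all breeds the difference of *GZMA* was -0.12 (adjusted p = 0.185). With log2 processed signal scaled to the 75th percentile of each array it was -0.475 (adjusted p = 0.125), and over 10 other settings it ranged from -0.475 to -0.076 and passed in none.

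*NKG7*, which encodes a protein of the granule membrane, averaged between 9.99 (CR TN) and 10.55 (LW TN) over the groups. Its difference between HS and TN pigs was -0.07, with a 95% interval of -0.31 to 0.18. *NCR1* encodes NKp46, an activating receptor of NK cells, and its group means lay between 5.62 (F1 HS) and 5.85 (F1 TN). It differed by -0.02, with an interval of -0.21 to 0.17. For *GZMB*, *PRF1*, *GZMA*, *NKG7*, *NCR1* and *CD8A*, no neighbouring group means differed by more than their pooled SD.

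*CD8A* showed opposite directions in the breeds, without passing a test. Among CR pigs its lead probe averaged 8.37 ± 0.51 in TN (SD, n = 5) and 8.61 ± 0.47 in HS (n = 6). The TN and HS means were 8.36 ± 0.27 and 8.77 ± 0.60 among F1 pigs, and 9.04 ± 0.54 and 8.42 ± 0.18 among LW pigs (SD, n = 6 each). HS minus TN was 0.24 in CR, 0.41 in F1 and -0.62 in LW pigs, with adjusted p-values of 0.789, 0.187 and 0.563. Values of HS and TN pigs overlapped in all breeds, although all 6 LW HS pigs lay below the LW TN mean and 5 of 6 F1 HS pigs above the F1 TN mean. The interaction had an unadjusted p of 0.0146 and an adjusted p of 0.278. The probe with the same bases gave 0.22, 0.33 and -0.60, and the probe elsewhere on *CD8A* gave 0.20, 0.20 and -0.24. Over all breeds the difference was 0.01, with an interval of -0.32 to 0.33. The *CD8A* lead probe rose with array signal (r = 0.671, rho = 0.677, permutation p = 4e-05, and r = 0.687 without the 2 pigs farthest from its median). With slide also removed, r was 0.686. With the array signal as a covariate its difference between climates was -0.22 (adjusted p = 0.245).

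**Figure D3:**
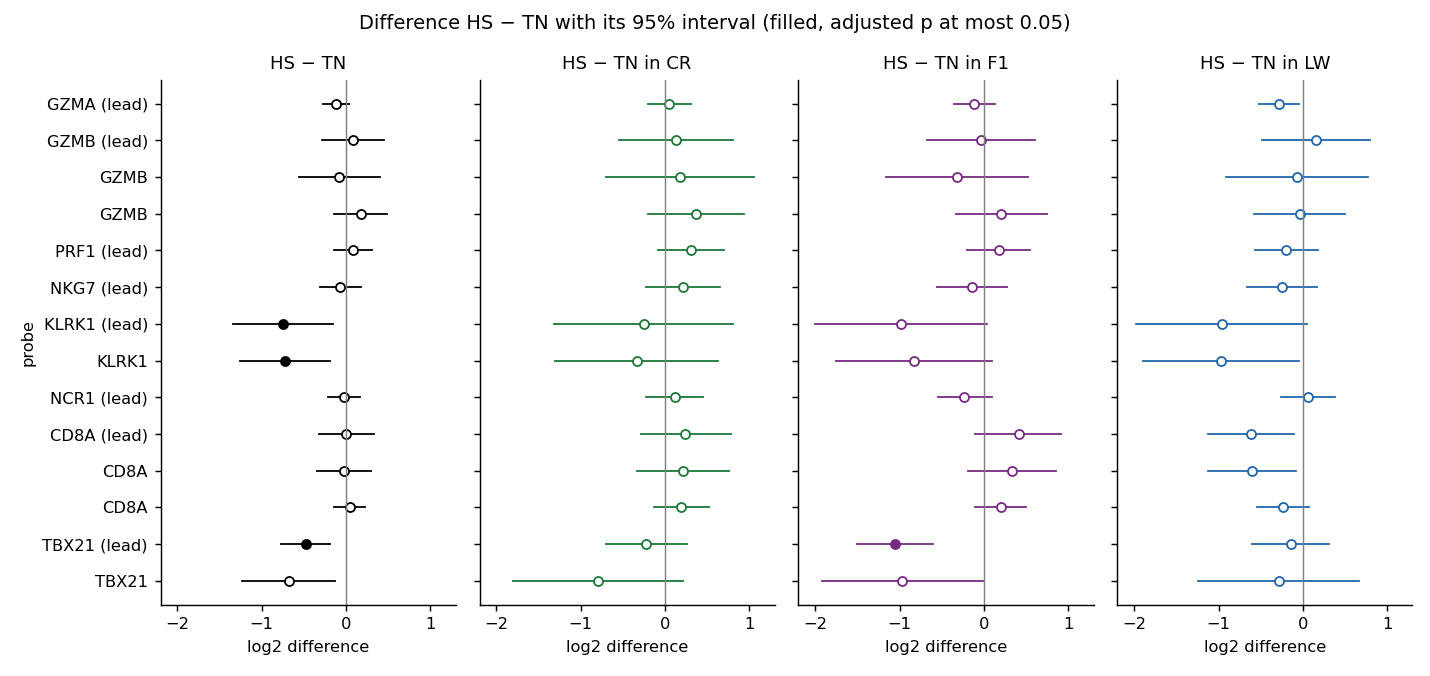
Log2 difference HS minus TN (horizontal axis) of the 14 member probes over all breeds and within CR, F1 and LW pigs; points are estimates, lines are 95% intervals, and filled points have an adjusted p of at most 0.05. Both *KLRK1* probes (-0.75 and -0.73) and the *TBX21* lead probe (-0.48) are filled over all breeds, and the *TBX21* lead probe (-1.05) is the filled point in F1 pigs.

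Within breeds, 1 of the 14 member probes passed in F1 pigs, the lead probe of *TBX21*, where 17.9% of all probes were lower and 20.8% higher in HS pigs. In CR pigs 0 of the 14 passed, where 0% of all probes were called. An unadjusted p under 0.05 was found for 0 of the 14 and for 8.87% of all probes. In LW pigs 0 of the 14 passed, again with 0% of all probes called. There 4 of the 14 had an unadjusted p under 0.05, against 8.71% of all probes. They were *GZMA*, the second *KLRK1* probe and both *CD8A* probes that share a sequence, all lower in HS pigs. For the interaction of breed and climate 0 passed, with 0% of all probes called. An unadjusted p under 0.05 was found for 3 of the 14, against 14.9% of all probes. The 3 were the lead *TBX21* probe and the same pair of *CD8A* probes. These counts come from limma, the only tool applied.

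No member probe passed in a contrast of breeds. For CR minus LW 0 of 14 passed, where 1.08% of all probes were called. The unadjusted p was under 0.05 for *NKG7* (-0.32, adjusted p = 0.459) and the third *GZMB* probe (-0.42, adjusted p = 0.428), both lower in CR pigs. Of all probes, 10.11% had an unadjusted p under 0.05 for CR minus LW. For F1 minus CR 0 passed, against 0.184% of all probes. The third *GZMB* probe (0.475, adjusted p = 0.786) had an unadjusted p under 0.05, as had 4.95% of all probes. The lead and second *GZMB* probes differed by -0.04 and -0.05 in that contrast. For F1 minus LW 0 passed, against 0.0256% of all probes, and 0 had an unadjusted p under 0.05, against 4.48% of all probes. The *KLRK1* lead probe was -0.56 in CR relative to LW pigs, with a 95% interval of -1.29 to 0.17.

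*KLRB1* encodes CD161, a C-type lectin of NK cells and some T cells. A reference table of pig genes ties 1 probe, listed under a locus number, to it. Among CR pigs it read 6.0 ± 0.13 in TN (SD, n = 5) and 5.93 ± 0.55 in HS (n = 6). The TN and HS means were 6.40 ± 0.56 and 5.66 ± 0.46 among F1 pigs, and 6.24 ± 0.59 and 6.04 ± 0.34 among LW pigs (SD, n = 6 each). Its difference between HS and TN pigs was -0.34 over all breeds (adjusted p = 0.0859) and -0.74 in F1 pigs (adjusted p = 0.0270). All 6 F1 HS pigs lay below the F1 TN mean, which also held for *NCR1*, a gene that did not pass there. In CR and LW pigs the difference was -0.07 and -0.20 (adjusted p = 0.959 and 0.812). The interaction of breed and climate did not pass (adjusted p = 0.509), so a difference between breeds was not established. With array signal as a covariate the F1 difference was -0.72 (adjusted p = 0.302).

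*FCGR3A* encodes CD16, the Fc receptor through which NK cells kill antibody-coated cells, and it is also carried by neutrophils and monocytes. Its pig record is held by 3 probes that the array names *FCGR3B*. The probe with the highest mean had group means from 13.63 (LW HS) to 14.04 (CR TN). The 3 probes differed by -0.13, -0.01 and 0.00 between HS and TN pigs, with 95% intervals of -0.43 to 0.16, -0.24 to 0.21 and -0.23 to 0.24. None passed in any breed.

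Members were compared with each other between pigs after the group means had been subtracted, over 28 pairs of lead probes (100000 permutations within groups, p adjusted over the 28). Pearson's r ranged from -0.576 to 0.732 with a median of 0.134, and 3 pairs passed. *PRF1* and *NKG7* rose and fell together (r = 0.732, rho = 0.674, p = 8e-05, adjusted p = 0.00224). *KLRK1* and *NCR1* did so as well (r = 0.503, rho = 0.489, p = 0.00098, adjusted p = 0.0108). *CD8A* and *TBX21* went in opposite directions (r = -0.576, rho = -0.614, p = 0.00116, adjusted p = 0.0108). Without the 2 pigs farthest from the median of the first gene, r was 0.644, 0.454 and -0.534. After the array signal had been regressed out as well, r was 0.764, 0.496 and -0.047. With slide in place of array signal removed together with group, r was 0.755, 0.558 and -0.651. The 2 granzymes had r = -0.077.

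**Figure D4:**
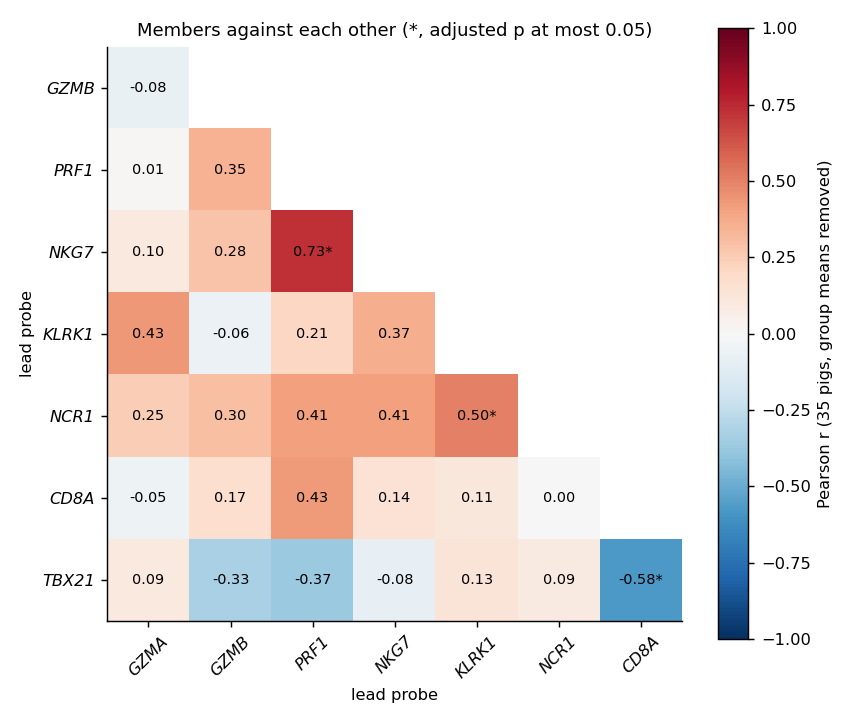
Pearson's r between the lead probes of the 8 measured genes over 35 pigs with group means removed, as colour and number; an asterisk marks a permutation p of at most 0.05 after adjustment over 28 pairs. The marked pairs are *PRF1* with *NKG7* (0.73), *KLRK1* with *NCR1* (0.50) and *CD8A* with *TBX21* (-0.58).

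The genes whose pattern over the 35 pigs was most like the mean of the 8 scaled lead probes included *GPR56* (r = 0.840, rho = 0.844), *HOPX* (r = 0.826) and *S1PR5* (r = 0.772). The other two of the 5 closest carried a sequence record in place of a gene name (r = 0.877 and 0.804). *GPR56* encodes an adhesion receptor and *S1PR5* a sphingosine phosphate receptor of NK cells, and *HOPX* a homeodomain protein. Members and these genes were measured on the same arrays, so shared signal and cell mixture enter these values, and none of the 5 passed for HS minus TN. For *KLRK1* alone, the closest genes with a name other than a locus number or record were *NDUFB3* (r = 0.839) and *COX6C* (r = 0.835). Neither passed for HS minus TN. A locus number stood closer (r = 0.869) and was lower in HS pigs (-0.60, adjusted p = 0.0390). For *TBX21* alone, the closest named genes were *FAM83F* (r = 0.982) and *TNFSF12* (r = 0.981). Both were lower in HS pigs (-0.47 and -0.40), and both followed the lead *TBX21* probe more closely than the second *TBX21* probe did (r = 0.491 with group means kept).

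Other genes of the cytotoxic programme were taken from 5 lists with 60 genes, of which 43 were in the table. Of these, 4 rose, 8 fell and 31 did not pass for HS minus TN, each by its lead probe. Over all gene names, 18.6% rose and 17.0% fell, against 9.30% and 18.6% here. The median difference was 0.04 on the lists and 0.05 over all gene names.

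Among granule and killing genes, 0 rose, 3 fell and 11 did not pass. The fall was largest for *GZMM*, granzyme M of NK cells, at -0.69 ± 0.14 (adjusted p = 0.00159). The proteoglycan of the granule core *SRGN* fell by 0.23 and the cytokine gene *IFNG* by 0.22. *SERPINB9*, which protects cells from their own granzyme B, had the largest positive value (0.20) without passing. Among receptors, *CD2*, an adhesion receptor, rose by 0.33 and *CD244*, an NK receptor, fell by 0.53 ± 0.12 (adjusted p = 0.00205), while 4 did not pass. The count of receptors that rose was 0 with the mean of all probes of a gene symbol and 3 with array weights. Several receptors of the NK gene complex on the list were not in the table.

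Among adaptors, 3 rose and 1 fell. *HCST*, which encodes DAP10, the adaptor of NKG2D, rose by 0.36 ± 0.11 (adjusted p = 0.0157), and the kinase *SYK* and the exchange factor *VAV1* rose by 0.35 and 0.29. *PLCG2*, a phospholipase of receptor signalling, fell by 0.44. *HCST* and *KLRK1* thus had differences of opposite sign. Among transcription factors 0 rose and 2 fell, *RUNX3* (-0.66 ± 0.17, adjusted p = 0.00442), which acts in the CD8 lineage, and *PRDM1* (-0.35). With the mean of all probes of a gene symbol 1 transcription factor fell, and with array weights 1 transcription factor and 1 granule gene rose. *EOMES*, the relative of T-bet, differed by 0.03 and did not pass. Among chemokines and homing receptors 0 rose and *CXCR3*, a chemokine receptor that T-bet is known to induce, fell by 0.76 ± 0.15 (adjusted p = 0.00159).

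In F1 pigs the differences of *GZMM* (-1.29), *CD244* (-1.06), *RUNX3* (-1.25) and *CXCR3* (-1.34) were larger than in CR (-0.35, -0.19, -0.42 and -0.56) and in LW pigs (-0.40, -0.29, -0.30 and -0.38), as fitted. These 4 were picked from genes that passed over all breeds, a fit with 0 calls without the F1 pigs. Of all probes, 17.9% were lower and 20.8% higher in HS within F1 pigs, and 0% were called within CR or LW pigs. Among list genes that passed, *SYK* was not larger in F1 pigs (0.295, against 0.416 in CR and 0.353 in LW pigs). The interaction of breed and climate did not pass for any of the 4 (adjusted p = 0.278, 0.278, 0.317 and 0.278). A difference between breeds was thus not established for these 4 genes. With array signal as a covariate, 1 granule gene, 1 receptor, 1 adaptor, 2 transcription factors and 1 gene of the chemokine list were lower in HS pigs, and 0 genes of the 5 lists were higher. With the erythroid mean as a covariate, and also without the F1 pigs, 0 genes of the lists passed in either direction.

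**Figure D5:**
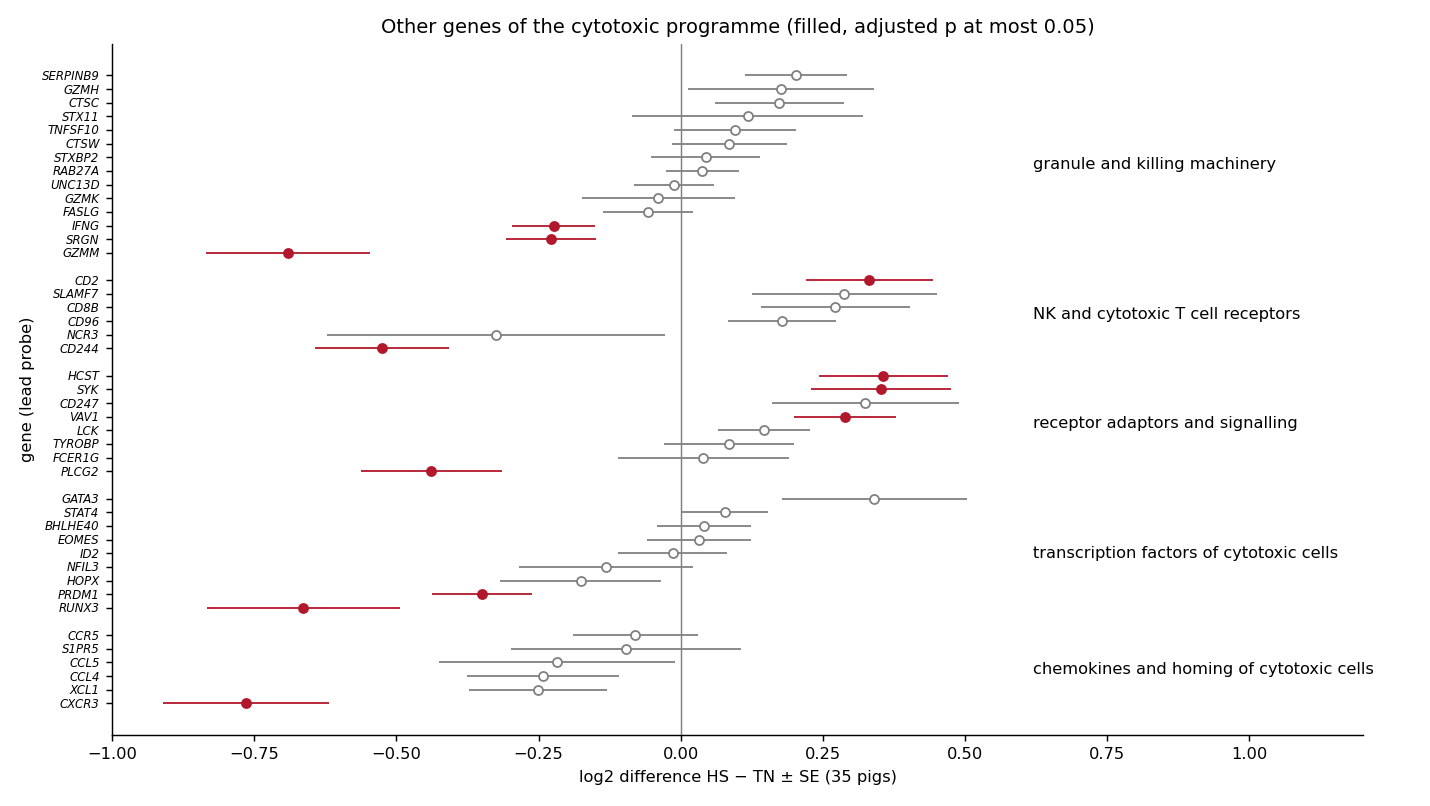
Log2 difference HS minus TN ± SE (horizontal axis) of 43 further genes of the cytotoxic programme, ordered within 5 lists; filled points have an adjusted p of at most 0.05. *CXCR3* (-0.76), *GZMM* (-0.69) and *RUNX3* (-0.66) lie farthest to the left, and the filled points to the right are *CD2*, *HCST*, *SYK* and *VAV1*.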

How the data were processed

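Whole blood RNA of 35 pigs was hybridised, 1 pig per array, to a one-colour Agilent array. The scanner files deposited by the authors hold the median intensity, its background and a background-subtracted intensity of each spot, made with Agilent Feature Extraction 10.10.1.1. The authors also deposited log2 values of 39072 probes, from quantile normalization of the median intensity and a filter on expressed probes whose rule is not given in the sources used here. These log2 values were analysed here. Recomputing them from the median intensity gave a correlation of 0.99997 and a largest difference of 0.32.

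Probes were named by the symbols in the scanner files. Each probe was fitted with limma 3.58.1 in R 4.3.3 (lmFit, eBayes, two-sided), with breed and climate for HS minus TN and breed contrasts, and with 6 group means for effects within breeds and the interaction. P-values were adjusted over all 39072 probes (Benjamini-Hochberg, threshold 0.05). The methods of the study also have pen, day of slaughter and parents as random effects, which the labels do not give, so SEs treat pigs as independent. Replicate numbers follow the order of the records. Arrays have no counting depth, so precision rests on how many arrays each group holds. The fit was tested on simulated data. Members and lists were chosen with earlier results of these data known. All listed members were named. From the other lists, genes that passed and the largest rise and fall of a list could be named, as were the 5 genes most like the members (for *KLRK1* and *TBX21* alone, this was added after seeing the data), and other named list genes were chosen after their values were seen. Alternatives were another background correction, scaling and filter, slide as a block, array weights, the mean of all probes of a gene, an erythroid covariate, leaving out F1 pigs and leaving out each pig. The covariate of array signal, values within slides, probes under other names, relations to cell type lists and array signal, and relations with slide removed (residuals of an additive fit of group and slide) were added after seeing the data.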

Additional observations from a re-analysis of the deposited data

Results flagged for a closer look

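In the LW TN group, *PRF1* read 7.14 in 1 pig, while the next highest of the 6 pigs read 6.34, which made that pig stand apart (its gap was 0.703 of the range of the group, above Dixon's critical value for 6 samples). It was the 1 of 48 combinations of gene and group in which a pig stood apart, and chance alone gives about 5% of such combinations. The same pig (LW TN pig 3) had the highest of the 35 values for the lead probes of *NKG7* (11.34), *KLRK1* (9.78) and *CD8A* (9.8), which were not flagged. This did not hold for *GZMA*, *GZMB* or *NCR1*, and its *TBX21* value (11.46) was the lowest of the LW TN group. Without any 1 pig, the difference of *PRF1* between HS and TN pigs ranged from 0.05 to 0.15.

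A second *GZMA* probe is on the array and not in the authors' table. It was well above background on 5 of the 35 arrays, 3 of CR HS and 2 of F1 HS pigs, and on 0 arrays of TN or LW pigs. Its recomputed group means lay between 5.11 (LW TN) and 5.28 (CR HS), and no test of it was part of the comparisons.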

How the results depend on the processing

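No paired analysis was possible because the labels do not give the litter, so littermates in TN and HS could not be matched. The replicate numbers used here only follow the order of the records. Of the 14 member probes, 3 passed for HS minus TN, and this count was 0 with the erythroid mean as a covariate, 0 without the F1 pigs and 0 with array signal as a covariate (chosen after seeing the data), and 1 to 4 when 1 pig was left out (1 without F1 TN pig 1, 2 or 4). In F1 pigs 1 passed, against 2 with slide as a block, 4 with array weights, 0 with array signal as a covariate and 1 to 3 without 1 pig (2 without F1 HS pig 4 and 3 without F1 TN pig 6). The counts for CR, LW, the interaction and the contrasts of breeds were 0 under all alternatives run. Over the whole table, HS minus TN had 13601 calls, 36 with the erythroid mean (75% of them higher in HS pigs), 0 without the F1 pigs and 6706 with array signal. In F1 pigs there were 15108, against 5884 with the erythroid mean (31.8% higher) and 0 with array signal, and in LW pigs 0, against 1111 with array weights. CR minus LW had 421 calls, 1524 with array weights and 727 with the erythroid mean, F1 minus CR had 72 (40 to 152) and F1 minus LW 10 (1 to 39, and 0 to 19 without 1 pig). The cause of these shifts was not tested. The lead *KLRK1* probe also missed the threshold with no filter on dim probes (-0.75, adjusted p = 0.0659), where 60305 probes were tested, and over 11 other settings its adjusted p ranged from 0.0290 to 0.414. Without the F1 pigs the lead probes of *KLRK1* and *TBX21* differed by -0.63 and -0.18 (adjusted p = 0.272 and 0.553). The second *TBX21* probe passed in 5 of 10 other settings and without any 1 of 10 pigs. Small differences changed sign: *GZMB* -0.148 and *PRF1* -0.006 with the erythroid mean, *NKG7* 0.021 with array weights, *NCR1* 0.006 with array weights, 0.086 without the F1 pigs and 0.021 with array signal, and *CD8A* -0.005, -0.185, -0.208 and -0.217 with array weights, the erythroid mean, no F1 pigs and array signal. Without 1 pig, *GZMB* ranged from -0.024 to 0.141, *NCR1* from -0.07 to 0.004 and *CD8A* from -0.059 to 0.075. The 3 correlations that passed were 3 as well with Spearman's rho and with scaling to the 75th percentile.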
